A study of Mus musculus with 6 samples.

Results

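The transcription factor ATF4 and its amino acid response are described here through 39 genes, chosen by name from the 34745 genes of the deposited table; all 39 had a row, and all 39 had enough counts to be tested. RNA was sequenced from P19, a line of mouse embryonal carcinoma cells that grows as pluripotent cells and can be turned towards cardiac or neural fates. The 6 libraries comprise 3 control libraries and 3 from cells given a peptide called PDTLN1. Every library came from the same line in the same serum-containing medium. No label states a dose or duration, and the name P50 in the titles of the treated libraries is not explained. The comparison asked which messenger RNAs differ after the peptide. No label says that libraries of a group came from separate cultures, so p-values measure only the spread between these libraries, which may be technical.

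ATF4 is the transcription factor at the end of the integrated stress response. When amino acids are short or unfolded proteins gather in the endoplasmic reticulum, kinases such as GCN2 (Eif2ak4) and PERK (Eif2ak3) phosphorylate the translation factor eIF2alpha, most protein synthesis slows, and the Atf4 messenger RNA is translated better. ATF4 then pairs with C/EBP proteins on a short element called the CARE (C/EBP-ATF response element) and raises genes that import amino acids, make serine, glycine, asparagine and proline, supply one-carbon units, and, under lasting stress, feed a CHOP-led arm of the response. Because much of the control of ATF4 is on translation, its own messenger RNA is a partial view of its activity.

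The CARE core was searched in promoter windows because it is the element on which ATF4 pairs with C/EBP proteins. Windows ran from 250 bases before to 50 bases after each annotated start (RefSeq, GRCm38.p6), and 33 of the 39 members matched an entry; windows of Slc7a5, Slc7a3, Aldh1l2, Slc1a5, Eif4ebp1 and Cth were not used here. The letters TGATGNAA, or TTNCATCA on the other strand, were present in windows of 10 of the 33 members (30.3%), against 4.51% of all 27025 genes with a window and 2.55% of the 10122 tested genes with one. No other motif was searched. The members with a match were Asns, Slc1a4, Pck2, Chac1, Trib3, Pycr1, Vldlr, Atf3, Slc7a11 and Nupr1, and Slc7a11 had 2 matches. The 6 windows of those with the highest mean CPM are printed 5′ to 3′ on the gene's strand, with the match in capitals.
Asns: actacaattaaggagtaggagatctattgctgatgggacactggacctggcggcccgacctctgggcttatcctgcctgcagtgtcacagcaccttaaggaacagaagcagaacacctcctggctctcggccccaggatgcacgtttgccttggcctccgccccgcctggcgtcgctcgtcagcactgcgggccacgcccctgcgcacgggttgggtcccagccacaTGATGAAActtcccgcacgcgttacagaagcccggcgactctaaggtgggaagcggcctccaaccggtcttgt
Slc1a4: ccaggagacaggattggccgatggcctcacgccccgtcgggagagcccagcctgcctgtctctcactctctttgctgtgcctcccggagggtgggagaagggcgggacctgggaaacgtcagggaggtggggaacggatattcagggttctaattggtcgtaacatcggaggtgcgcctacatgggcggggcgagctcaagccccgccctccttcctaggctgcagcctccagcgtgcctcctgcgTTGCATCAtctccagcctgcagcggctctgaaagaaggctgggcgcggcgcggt
Pck2: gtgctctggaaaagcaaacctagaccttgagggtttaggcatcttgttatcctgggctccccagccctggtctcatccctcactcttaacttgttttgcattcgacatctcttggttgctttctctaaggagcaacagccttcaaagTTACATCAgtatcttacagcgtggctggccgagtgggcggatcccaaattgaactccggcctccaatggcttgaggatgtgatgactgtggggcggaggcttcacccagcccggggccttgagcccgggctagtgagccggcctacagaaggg
Chac1: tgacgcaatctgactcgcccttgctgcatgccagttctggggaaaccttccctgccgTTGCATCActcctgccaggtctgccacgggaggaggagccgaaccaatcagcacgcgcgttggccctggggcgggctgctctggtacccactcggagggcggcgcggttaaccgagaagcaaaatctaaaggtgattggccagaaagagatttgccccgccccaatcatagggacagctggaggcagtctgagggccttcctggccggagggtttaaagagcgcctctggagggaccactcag
Trib3: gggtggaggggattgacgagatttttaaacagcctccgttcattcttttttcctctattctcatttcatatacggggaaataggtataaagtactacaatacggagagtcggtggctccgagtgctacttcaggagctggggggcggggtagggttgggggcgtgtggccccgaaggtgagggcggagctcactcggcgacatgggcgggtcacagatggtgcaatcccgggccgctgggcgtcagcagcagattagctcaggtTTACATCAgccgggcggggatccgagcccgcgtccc
Pycr1: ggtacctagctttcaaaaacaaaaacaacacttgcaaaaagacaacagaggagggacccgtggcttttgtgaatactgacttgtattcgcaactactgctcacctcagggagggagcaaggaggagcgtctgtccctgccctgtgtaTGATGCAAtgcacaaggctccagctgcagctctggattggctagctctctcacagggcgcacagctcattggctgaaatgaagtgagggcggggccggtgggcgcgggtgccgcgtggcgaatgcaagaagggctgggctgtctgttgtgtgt
The Asns window lies at chr6:7693160-7693459 on the minus strand, and its match begins 23 bases before the start. The windows of Slc1a4 (chr11:20332664-20332963, minus strand), Pck2 (chr14:55540016-55540315, plus strand), Chac1 (chr2:119350992-119351291, plus strand) and Pycr1 (chr11:120643699-120643998, minus strand) have theirs 4, 103, 193 and 103 bases before it. In Trib3 (chr2:152344011-152344310, minus strand) the match begins 14 bases after the start. A match is a stretch of letters, not a measured site. The members were chosen by name for the ATF4 response, and many are known ATF4 targets. They also include Atf4 itself and the upstream kinases Eif2ak3 and Eif2ak4.

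Total gene counts ran from 10381307 to 11663081 per library. Levels are given as CPM, each gene's count scaled to a common library size. The pluripotency gene Pou5f1 lay at 1259 to 1502 CPM in the 6 libraries and Lin28a at 866 to 953 CPM, while Zfp42 and Dppa5a were too low to test. Retinas are mentioned in the extraction protocol; of 12 retinal genes 0 had enough counts to test, and Crx, Arr3 and Opn1sw had 0 counts in all libraries, which allows up to 0.256 to 0.290 CPM (3 counts per library). 

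Libraries of the same label stood far apart in these genes, and in the same direction in most of them. Around each gene's own mean, the 39 members averaged -0.24, 0.12 and 0.29 log2 units in controls 1, 2 and 3; the PDTLN1 libraries 1, 2 and 3 averaged 0.31, -0.35 and -0.13. Control library 1 was the lowest control in 32 of 39 members (82.1%, against 38.0% of all 13836 tested genes) and control library 3 the highest in 30 (76.9%, against 33.9%). PDTLN1 library 2 was the lowest treated library in 28 members (71.8%, against 35% of all tested genes) and PDTLN1 library 1 the highest in 31 (79.5%, against 37.1%). All 4 of these positions held together in 21 members (53.8%) and in 8.25% of tested genes. The positions were picked after the values were seen, and these figures are a description. In bulk libraries, fewer cells with a response and less RNA per cell cannot be told apart.

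**Figure D1:**
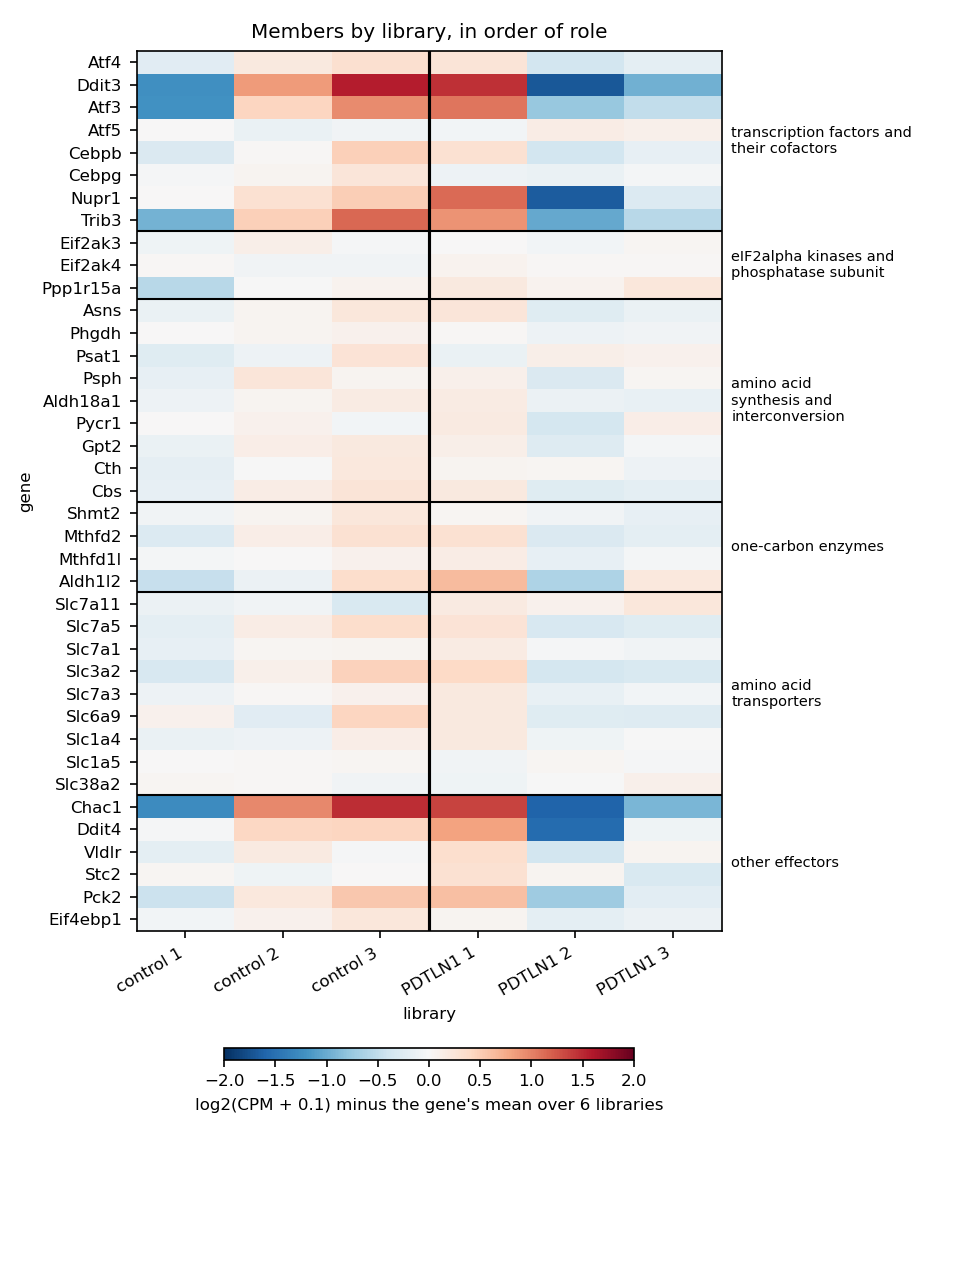
Level of the 39 members in each library, as log2(CPM + 0.1) minus the gene's mean over the 6 libraries (colour scale), with genes in rows by role and libraries in columns, controls on the left. Ddit3, Chac1, Atf3 and Trib3 are strongly coloured in both groups and Nupr1 and Ddit4 most in the PDTLN1 libraries; the first 4 are low in control 1, PDTLN1 2 and PDTLN1 3 and high in control 3 and PDTLN1 1, while the rows of Eif2ak4, Slc1a5 and Phgdh are pale.

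Of the 8 transcription factors and cofactors, Atf4 itself was abundant and moved moderately between libraries. Atf4 (ENSMUSG00000042406, chromosome 15, 80255184 to 80257540, GRCm38) was at 289, 385 and 422 CPM in controls 1, 2 and 3 and at 401, 262 and 295 CPM in PDTLN1 libraries 1, 2 and 3. The groups overlapped, with control 1 close to PDTLN1 library 3 and PDTLN1 library 1 between controls 2 and 3. Control libraries averaged 365 ± 68.6 CPM and treated libraries 319 ± 72.5 CPM (SD, n = 3 each). The log2 fold change, PDTLN1 over control, was -0.19 ± 0.21 (SE).

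Ddit3, which encodes CHOP, the C/EBP-related factor linked to cell death under lasting stress, varied far more than Atf4. Its controls were at 10.3, 43.4 and 71.3 CPM and its PDTLN1 libraries at 66.3, 7.39 and 12.3 CPM. The highest control was 6.95 times the lowest, and control 1 sat among PDTLN1 libraries 2 and 3. The log2 ratio to control was -0.55 ± 1.14 (SE), so the difference between the groups was smaller than the spread within them. Some exons of Ddit3 lie over those of Mars and Gm4189 on the opposite strand, and over those of another entry named Ddit3 on the same strand. Mars was at 315 to 341 CPM in all 6 libraries.

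Atf3, an ATF4-induced factor that also answers to other stresses, had the same order of libraries. It was at 10.1, 31.6 and 45.4 CPM in controls and 49.5, 13.8 and 16.7 CPM after PDTLN1, a log2 ratio to control of -0.13 ± 0.77 (SE). Trib3, a pseudokinase that binds and restrains ATF4 and CHOP, ranged from 19.4 to 83.0 CPM in controls and from 18.2 to 69.4 CPM after PDTLN1. Cebpb, a dimer partner of ATF4, ranged from 12.6 to 21.4 and from 11.8 to 19.0 CPM. Both groups thus covered nearly the same range in each of these genes.

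Nupr1, a small stress-induced chromatin protein, was close to the limit of detection. Its counts were 11, 14 and 17 in controls and 25, 3 and 10 after PDTLN1, so its level rests on few reads.

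The remaining factors were steadier. Cebpg, another partner of ATF4, was at 44.5, 47.0 and 53.2 CPM in controls and 41.9, 41.4 and 44.2 CPM after PDTLN1; every treated library was below every control, with a log2 ratio to control of -0.18 ± 0.09 (SE). Atf5, a relative of ATF4 that acts in mitochondrial stress, was at 17.1, 15.5 and 16.1 CPM and at 16.5, 18.9 and 18.2 CPM, with overlapping groups. Unlike Ddit3 and Atf3, neither gene had its lowest control in library 1 together with its highest treated library in library 1. Cebpg and Atf5 each share exon sequence with other annotated genes.

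The messenger RNAs of the sensors upstream of ATF4 varied no more than those of many genes. Ratios of highest to lowest library were 1.16 in controls and 1.07 after PDTLN1 for Eif2ak3, and 1.08 and 1.04 for Eif2ak4. The medians over genes at 10 CPM or more were 1.15 and 1.17. Activity of the kinases was not measured. Eif2ak3, the kinase PERK that senses unfolded protein, was at 35.4, 41.0 and 37.2 CPM in controls and 37.6, 36.2 and 38.6 CPM after PDTLN1. Eif2ak4, the kinase GCN2 that senses uncharged tRNA, was at 49.8, 46.6 and 46.3 CPM and at 51.5, 49.4 and 49.4 CPM. The groups overlapped in both genes, and the log2 ratios to control were -0.01 ± 0.09 and 0.07 ± 0.08 (SE).

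Ppp1r15a, which encodes GADD34, the phosphatase subunit that switches eIF2alpha back on, gave a different picture from the other feedback gene Trib3. It was at 24.3, 35.8 and 37.6 CPM in controls and 41.0, 37.9 and 42.1 CPM after PDTLN1, so all treated libraries were above all controls, PDTLN1 2 by a narrow margin over control 3. The log2 ratio to control was 0.31 ± 0.15 (SE).

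Enzymes that make amino acids varied less than the factors, and all 9 kept a ratio of highest to lowest library under 1.5 in both groups. Asns, asparagine synthetase and a classical ATF4 target, was at 226, 258 and 289.8 CPM in controls and 292, 209.9 and 226 CPM after PDTLN1. Its order of libraries was that of Atf4 in a narrower range, and the log2 ratio to control was -0.09 ± 0.14 (SE). Gpt2, a mitochondrial alanine aminotransferase, was at 51.1, 61.8 and 64.3 CPM and at 60.8, 47.0 and 54.7 CPM, again with overlapping groups.

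Of the serine synthesis enzymes, Phgdh, which opens the pathway, was at 120.5, 125 and 128 CPM in controls and 122, 111 and 114 CPM after PDTLN1. Its within-group ratios were 1.06 and 1.09, among the smallest of the members. Psat1, the aminotransferase of the next step, was at 386, 427 and 556 CPM and at 419, 500.2 and 488 CPM. Here PDTLN1 library 1 was the lowest treated library, the reverse of its place in Asns. Psph, the final phosphatase, ranged from 33.4 to 44.4 CPM in controls and from 30.4 to 40.2 CPM after PDTLN1.

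In proline synthesis, Pycr1, the last reductase, was at 30.9, 32.4 and 29.5 CPM in controls and 34.7, 24.1 and 33.6 CPM after PDTLN1. Its means were nearly equal, at 30.9 ± 1.48 and 30.8 ± 5.85 CPM (SD, n = 3 each). Aldh18a1, which begins the pathway, ranged from 121 to 146 CPM and from 118 to 146 CPM. The transsulfuration genes Cbs and Cth, which turn homocysteine into cysteine, ranged from 17.5 to 24.6 and from 52.1 to 68.3 CPM over all 6 libraries.

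All 4 mitochondrial one-carbon enzymes had their lowest control in library 1, and their highest control and treated values in control 3 and PDTLN1 1. Shmt2, which passes a carbon from serine to folate, was at 245, 265 and 299 CPM in controls and 262, 244 and 229 CPM after PDTLN1, a log2 ratio to control of -0.14 ± 0.08 (SE). Mthfd2, the mitochondrial dehydrogenase of proliferating cells, was at 109, 144 and 161 CPM and at 162, 107 and 114 CPM. Aldh1l2, a mitochondrial formyl-tetrahydrofolate dehydrogenase, was at 7.77, 9.85 and 13.7 CPM and at 16.6, 6.95 and 12.4 CPM, the widest relative range of the 4. Mthfd1l, the mitochondrial formate producer, stayed between 88.9 and 111 CPM. The groups overlapped in all 4 genes.

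Among the 9 amino acid transporters, Slc7a11 had the smallest p of all members. Slc7a11, the light chain of the cystine importer xCT, was at 12.8, 13.1 and 11.2 CPM in controls and 15.7, 14.7 and 16.2 CPM after PDTLN1. Its treated libraries were all above its controls, and its within-group ratios were 1.17 and 1.10. The log2 ratio to control was 0.33 ± 0.13 (SE), and edgeR's p was 0.0277 before and 0.989 after adjustment over all genes, where the alternatives spanned 0.310 to 1.00.

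Slc3a2 encodes CD98, the heavy chain that carries both xCT and the leucine transporter LAT1 to the membrane. It was at 186, 248 and 321 CPM in controls and 307, 182 and 189 CPM after PDTLN1, unlike its partner Slc7a11. Slc7a5, which encodes LAT1, had the order of Slc3a2, with 207 to 303 CPM in controls and 189 to 287 CPM after PDTLN1. Slc6a9, the glycine transporter GLYT1, was at 12.3, 9.85 and 15.6 CPM and at 13.2, 9.73 and 9.65 CPM.

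The other transporters were even. The arginine and lysine transporters Slc7a1 and Slc7a3 stayed at 101 to 127 and 112 to 142 CPM over the 6 libraries, and the neutral amino acid exchangers Slc1a4 and Slc1a5 at 94.1 to 118 and 56.3 to 61.1 CPM. Slc38a2, the adaptive glutamine transporter SNAT2, was at 328 to 376 CPM, and its lowest libraries were control 3 and PDTLN1 1, which were the highest for Slc3a2.

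Of the 6 other effectors, Chac1 resembled Ddit3. Chac1, an enzyme that degrades glutathione and is induced through ATF4, was at 16.1, 75.8 and 109 CPM in controls and 99.1, 12.7 and 20.6 CPM after PDTLN1. Its highest library was 6.74 times the lowest among controls and 7.81 times among treated libraries, and the log2 ratio to control was -0.61 ± 1.10 (SE). Control 1 lay between PDTLN1 2 and PDTLN1 3, and PDTLN1 1 between controls 2 and 3.

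Ddit4 (REDD1), an inhibitor of mTORC1 that also responds to low oxygen, was at 122, 165 and 167 CPM in controls and 216, 42.5 and 117 CPM after PDTLN1. PDTLN1 library 2 alone was far below the rest, so the within-group ratio was 1.37 in controls and 5.07 after PDTLN1. Pck2, the mitochondrial phosphoenolpyruvate carboxykinase, ranged from 50.9 to 100.2 CPM and from 41.9 to 104 CPM, in the order of Chac1.

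Eif4ebp1, a repressor of cap-dependent translation, was at 98.1, 108 and 118 CPM in controls and 105, 88.5 and 93.4 CPM after PDTLN1, a log2 ratio to control of -0.18 ± 0.09 (SE). Stc2, a secreted stanniocalcin, was at 42.5 to 46.3 CPM in controls and 36.6 to 55.7 CPM after PDTLN1. Vldlr, a lipoprotein receptor, was at 25.5 to 33.0 and 22.7 to 37.0 CPM. In both, the treated libraries enclosed the controls.

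**Figure D2:**
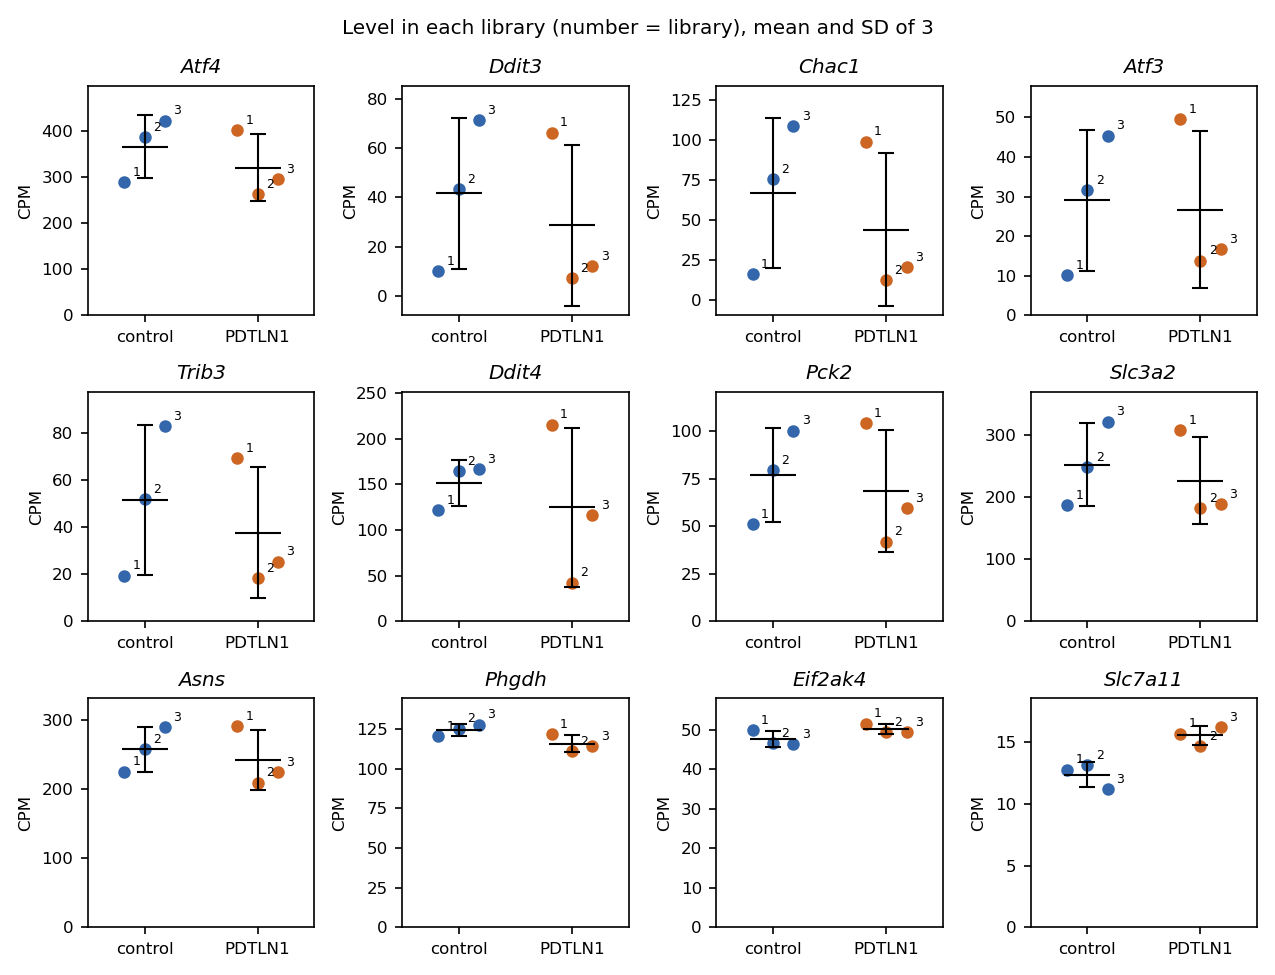
CPM of 12 members in the 3 control and 3 PDTLN1 libraries; each point is a library with its number, and the bar gives the mean and SD of 3. In Ddit3, Chac1, Atf3, Trib3, Pck2 and Slc3a2 control 1 lies with PDTLN1 2 and 3 and PDTLN1 1 with controls 2 and 3, whereas the 3 treated libraries of Slc7a11 (14.7 to 16.2 CPM) all lie above its controls (11.2 to 13.1 CPM).

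Set against control, 0 of the 39 members passed edgeR's quasi-likelihood test at an adjusted p under 0.05, where 0.0217% of the 13836 tested genes did. DESeq2 also called 0 members, against 0.112% of the genes for which it gave an adjusted p. At an unadjusted p under 0.05, edgeR gave 1 member, Slc7a11, where 3.99% of tested genes reached that level. The groups did not overlap in 3 members, with Slc7a11 and Ppp1r15a higher and Cebpg lower after PDTLN1, a share of 7.69% against 9.79% of all tested genes (4.81% higher and 4.98% lower). The smallest edgeR adjusted p of a member was 0.989.

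Signs leaned to lower values after PDTLN1, in 28 members against 11, with a median log2 fold change of -0.10 where the median of all tested genes was -0.00087. That lean rested on single libraries. Without PDTLN1 library 2 the median was 0.005 with 19 members below 0, and without control 3 it was 0.004 with 18 below 0. Without control 1 or PDTLN1 library 1 it was -0.18 in each case, with 31 and 33 members below 0. Leaving out 1 library turned the sign of 23 members, while other scalings turned the sign of 0.

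Leaving out both libraries that carry the number 1 removed the control with the lowest and the treated library with the highest mean of the members. That omission by itself moves the members towards lower values after PDTLN1, so the direction of the calls below carries no separate weight. In that fit 4 of the 39 members passed edgeR's test, all lower after PDTLN1, beside 0.652% of 13949 genes (0.294% lower). They were Atf4 (log2 fold change -0.54, adjusted p 0.0295, with alternatives spanning 0.0295 to 1.00), Slc7a5 (-0.54, 0.0328, spanning 0.0328 to 1.00), Atf3 (-1.34, 0.0421, spanning 0.0421 to 1.00) and Mthfd2 (-0.47, 0.0473, spanning 0.0473 to 1.00). Without the libraries numbered 2, 0 members passed in either direction, beside 0.0359% of all genes (0.00718% lower), and the median was 0.006. Without those numbered 3, 0 passed, beside 0.0144% (0.00721% lower), and the median was 0.065.

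**Figure D3:**
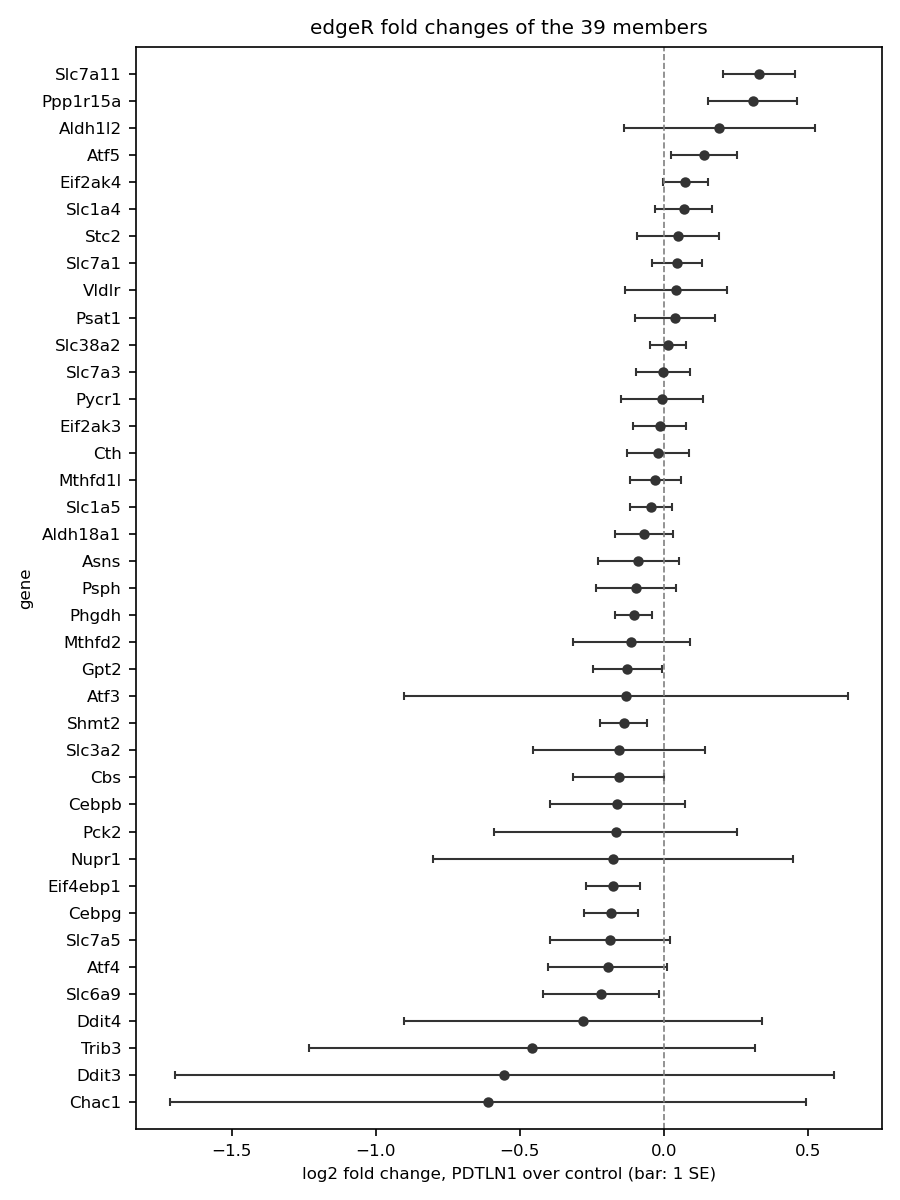
edgeR log2 fold change of PDTLN1 over control for each of the 39 members (points) with 1 SE (bars), sorted by value; the dashed line marks no difference. The bars of Chac1, Ddit3, Trib3 and Atf3 are the longest, with SEs of 1.10, 1.14, 0.77 and 0.77, and 0 members passed after adjustment over all genes.

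The spread within groups was the larger feature of these genes. The median SD over 3 libraries was 0.18 log2 units in controls and 0.22 after PDTLN1, against 0.13 and 0.15 over all tested genes, and 0.10 and 0.12 over the 9929 genes at 10 CPM or more. The highest library was at least 1.5 times the lowest in 10 members among controls (25.6%, against 17.8% of tested genes and 6.12% of those at 10 CPM or more) and in 15 after PDTLN1 (38.5%, against 19.4% and 8.19%). Both groups met that mark in 8 members (20.5%, against 9.98% of tested genes), namely Ddit3, Chac1, Atf3, Trib3, Pck2, Aldh1l2, Slc3a2 and Cebpb. These were 21.1% of the 38 members at 10 CPM or more, against 2.7% of all such genes.

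The spread was unequal over the roles. Its median SD in controls and treated libraries was 0.33 and 0.67 in the 8 transcription factors and cofactors, 0.22 and 0.51 in the 6 other effectors and 0.22 and 0.24 in the 4 one-carbon enzymes. It was 0.18 and 0.19 in the 9 enzymes of amino acid synthesis, 0.12 and 0.14 in the 9 transporters, and 0.11 and 0.05 in the 3 genes that act on eIF2alpha. At the other end, 9 members stayed under a ratio of 1.2 in both groups, namely Eif2ak4, Eif2ak3, Slc1a5, Phgdh, Slc38a2, Atf5, Slc7a1, Slc7a11 and Cebpg. Ratios that low were usual in each group. The median ratio over genes at 10 CPM or more was 1.15 in controls and 1.17 after PDTLN1, against 1.29 and 1.32 over the members. The share of all genes under 1.2 in both groups was not counted. Of the 7 widely varying members with a promoter window 4 had the CARE letters, as did 6 of the 26 others. The widely varying members were defined by these same values, and a link between letters and spread was not tested. Ddit3, the most variable of them, had no match, and Slc7a11, with 2 matches, was among the 9 under 1.2.

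The difference between control 3 and control 1 and the difference between PDTLN1 1 and PDTLN1 2 share no library, and they ranked the members alike. Across the 39 genes they correlated with a Pearson r of 0.81 and a Spearman rho of 0.69. The values were 0.34 and 0.41 across all tested genes, and 0.43 and 0.50 across those at 10 CPM or more. Genes are not independent replicates, and they share the scaling of their libraries. Both differences were above 0 in 31 members (79.5%) and in 33.1% of tested genes. The 4 libraries were chosen after their values were seen.

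**Figure D4:**
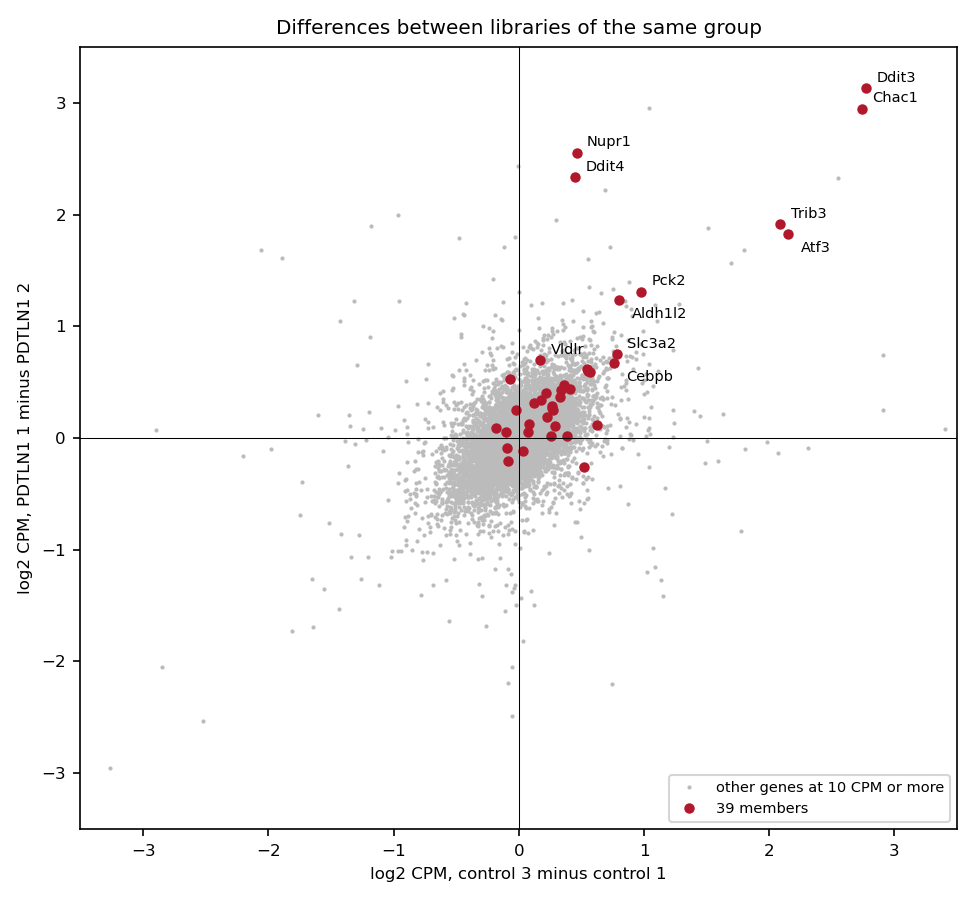
Difference in log2 CPM between control 3 and control 1 (x axis) and between PDTLN1 1 and PDTLN1 2 (y axis) for the 39 members (red) and other genes at 10 CPM or more (grey; 6 lie outside the axes). Ddit3 and Chac1 lie at the upper right, followed by Trib3 and Atf3, and most members lie in the upper right field.

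Markers of cell state also differed between libraries of a group, some in the order of the members and some in the reverse. Among 10 pluripotency markers, Sox2 was at 98.9, 66.5 and 56.0 CPM in controls and 59.4, 81.4 and 84.5 CPM after PDTLN1, and Tdgf1, the Nodal co-receptor Cripto, at 424, 356 and 325 CPM and at 340, 392 and 430 CPM. Both were highest in control 1 among controls and lowest in PDTLN1 1 among treated libraries. Pou5f1, at 1440.5, 1451 and 1502 CPM and at 1418, 1259 and 1384 CPM, and Nanog, at 85.0, 105 and 102 CPM and at 98.5, 78.2 and 93.6 CPM, were instead lowest in control 1 and PDTLN1 2 and highest among treated libraries in PDTLN1 1, as most members were. Of the 10 markers 8 could be tested and 0 passed; Utf1, with all treated libraries (50.2 to 61.8 CPM) below all controls (73.0 to 77.2 CPM), had the smallest p (edgeR, 0.00248 before and 0.989 after adjustment). The list summed to 3501, 3354 and 3430.1 CPM in controls and 3212, 3243 and 3350 CPM after PDTLN1. Its sum was highest among controls in control 1 and lowest among treated libraries in PDTLN1 1, as for Sox2. The lowest control sum was in control 2, whereas Sox2 was lowest in control 3, and Pou5f1 was the largest part of the sum. Of 10 blood and immune markers 2 could be tested and Cd3e had 0 counts throughout; the list summed to 10.1, 6.09 and 4.39 CPM in controls and 7.26, 10.6 and 7.0 CPM after PDTLN1, highest in control 1 and PDTLN1 2. Its lysozyme gene Lyz2 was at 7.87, 3.84 and 1.97 CPM and at 3.58, 7.39 and 5.04 CPM. Of 8 fibroblast markers 7 could be tested, and they summed to 86.0 to 90.0 CPM and 66.9 to 81.4 CPM. The part of these markers in the spread of the members was not tested.

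Of 73 other genes of the pathway, 69 could be tested, and 0 passed edgeR's adjusted threshold in either direction (3 had an unadjusted p under 0.05, all with lower values). The eIF2 and eIF2B machinery was even: of its 15 genes 0 passed, and the 2 with the smallest p, Eif2b5 and Eif2b3, subunits of the exchange factor that recharges eIF2, had log2 fold changes of -0.09 and 0.11. Its median within-group SD was 0.08 in controls and 0.07 after PDTLN1. Of 18 further ATF4 targets and partners 0 passed. The phosphatase gene Dusp4 averaged 79.8 ± 5.25 and 62.0 ± 5.92 CPM (SD, n = 3 each), and the autophagy gene Map1lc3b had a log2 fold change of 0.36. In 6 of the 18 (33.3%) the highest library was at least 1.5 times the lowest in both groups. That share was 20.5% of the members and 9.98% of tested genes. The median within-group SD of the 18 was 0.15 in controls and 0.14 after PDTLN1. Of 19 further enzymes and 17 further transporters 0 passed. Glutamine synthetase (Glul) and cytosolic serine hydroxymethyltransferase (Shmt1) differed from control by -0.14 and -0.15 on the log2 scale, and the cationic transporters Slc7a7 and Slc7a2 by -0.20 and -0.45. Gdf15 and Fgf21, secreted ATF4 targets, had at most 14 and 4 counts in any library.

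By their means, both neighbouring programmes had control 1 as the lowest control and control 3 and PDTLN1 1 as the highest of their groups, as the members did. PDTLN1 3 rather than PDTLN1 2 had the lowest mean, by a small margin. Gene by gene, control 1 was the lowest control in 17 of 19 endoplasmic reticulum genes (89.5%, against 82.1% of members). Control 3 was the highest control in 18 (94.7%, against 76.9%) and PDTLN1 1 the highest treated library in 17 (89.5%, against 79.5%). These positions were thus not particular to the members. PDTLN1 2 was the lowest treated library in 10 of these genes and PDTLN1 3 in 8. Among the 20 synthetases, control 1 was lowest in 12, control 3 highest in 12 and PDTLN1 1 highest in 13. There PDTLN1 2 was lowest in 8 and PDTLN1 3 in 10. The 19 endoplasmic reticulum chaperone and quality control genes averaged -0.13, 0.02 and 0.26 log2 units around their means in controls and 0.19, -0.17 and -0.18 after PDTLN1, with a median within-group SD of 0.15 and 0.16. A ratio of at least 1.5 in both groups was met by 3 of these 19 (15.8%) and by 0 of the 20 synthetases. The 20 cytosolic aminoacyl-tRNA synthetases, several of which are ATF4 targets, averaged -0.02, 0.02 and 0.06 and 0.04, -0.04 and -0.06, with medians of 0.06 and 0.07. In both lists 0 genes passed; Sel1l and Manf, and the synthetase genes Kars and Tars, had the smallest p, with log2 fold changes of 0.42, -0.19, -0.07 and -0.09.

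By level per length, Atf4 led the members at 198 FPKM on average over the 6 libraries (fragments per kilobase, scaled to depth, as deposited). How the length of each gene was set was not given in the sources used here. Its groups were at 211 ± 39.8 and 185 ± 41.4 FPKM (SD, n = 3 each). Shmt2 and Eif4ebp1 followed at 111 and 104 FPKM, in ranges that overlapped each other, and then Ddit4, Slc38a2, Asns and Psat1 at 81.9, 75.4, 66.6 and 66.4 FPKM, whose SDs span the gaps between them. In all, 3 members were at 100 FPKM or more, 19 between 10 and 100, and 17 under 10. The lowest were Slc6a9, Aldh1l2, Slc7a11 and Nupr1, at 1.2, 1.01, 0.887 and 0.242 FPKM. This order depends on the lengths used. By CPM, Psat1 was the highest member, at means of 456 in controls and 469 after PDTLN1, against 365 and 319 for Atf4.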

How the data were processed

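The data were gene counts and FPKM from RNA sequencing of 3 control and 3 PDTLN1 libraries of P19 cells. Whole-number counts per gene, not normalized, were deposited, per the file headers. FPKM, also made by the authors, matched them: all 15678 genes with counts in every library implied 1 length within 0.1%. The submitters' processing notes name Bowtie 0.12.2 and genome builds mm8 and mm9 without saying what each served. The read counter, strand setting and annotation were not given in the sources used here. Positions of 32 of 39 members equalled those of GENCODE M21 (GRCm38). Exons of 11 members (Ddit3, Atf5, Cebpb, Cebpg, Eif2ak3, Ppp1r15a, Psph, Shmt2, Aldh1l2, Slc6a9 and Pck2) overlap other genes, and Phgdh has a processed pseudogene, so their counts are less certain.

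Counts were tested with edgeR 4.0.16 (R 4.3.3; filterByExpr, TMM, robust glmQLFit and glmQLFTest) over 13836 genes, with Benjamini-Hochberg adjustment over all of them and a threshold of 0.05; the steps were tested on simulated data. The SE is |log2 fold change| over the root of F. Log2 CPM used a prior count of 2. Alternatives were a block on replicate number, omission of each library or number, DESeq2 1.42.0, other scalings, filters, thresholds and a prior count of 0.5. Members, lists and rules were chosen with earlier results of these data known. Values in every library are printed for members past the threshold, 7 core genes and, per role, the 2 with the smallest p and the 2 with the widest within-group ratio, 23 in all; other named genes were chosen after their values were seen, except the 2 with the smallest p of each further list.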

Additional observations from a re-analysis of the deposited data

How the results depend on the processing

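The number of members past edgeR's threshold stayed at 0 in every alternative except the omission of both libraries numbered 1; over all omissions it ran from 0 to 4, as did the number called lower, and that of other pathway genes from 0 to 1. Over all genes, 3 were called, against 1 with the replicate block, 14 with DESeq2 and 8 without a filter beyond 1 count. Omitting 1 library gave 2 (control 2 or PDTLN1 3) to 13 (control 1), with 5, 8 and 6 without control 3, PDTLN1 1 and PDTLN1 2; omitting both libraries of numbers 1, 2 and 3 gave 91, 5 and 2. With the replicate block 0 members passed. Same-numbered libraries did not deviate together (correlations of -0.36, -0.14 and -0.10 across genes), and 0 of 3 controls correlated best with their own number. The median log2 fold change of the members ran from -0.26 to 0.07 over the omissions. The median within-group SD ran from 0.118 (without control 1) to 0.235 in controls and from 0.0767 (without PDTLN1 1) to 0.261 after PDTLN1, and moved by less under other scalings and prior counts. The causes were not tested. Depth limited Nupr1 most, at 3 to 25 counts.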

Other observations

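Several further genes, chosen after their values were seen, differed between libraries as the members did. Herpud1, a membrane protein of endoplasmic reticulum-associated degradation, was at 30.6, 106 and 180.5 CPM in controls 1, 2 and 3 and at 155, 30.8 and 30.9 CPM in PDTLN1 libraries 1, 2 and 3. Sesn2, a leucine sensor upstream of mTORC1, was at 57.6, 91.8 and 118 CPM and at 99.1, 62.4 and 66.3 CPM. Xbp1 and Dnajb9, a factor and a chaperone of the IRE1 arm, ranged from 63.5 to 120.2 and from 11.9 to 30.7 CPM with the same libraries high.

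Other genes did not. Hspa5, which encodes the chaperone BiP, was at 796, 575 and 694 CPM in controls and 648, 782 and 744 CPM after PDTLN1. Txnip, an arrestin-like protein that restrains glucose uptake, had the reverse order, at 10.3, 2.25 and 1.88 CPM in controls and 2.71, 19.5 and 6.49 CPM after PDTLN1.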
